A study of Mus musculus with 16 samples.

Results

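Sterol and fatty acid synthesis genes were followed across the libraries of a mouse striatum study by taking the lines of the read-count table that carry 32 gene symbols: 7 enzymes of the mevalonate arm, 11 enzymes that lead from squalene to cholesterol, 6 regulators or carriers of the sterol response, and 8 genes of fatty acid synthesis and desaturation. The table holds 24058 gene symbols in all, and all 32 were in it and were tested in every comparison. In wild-type C57BL/6J males aged 9 weeks, astrocytes were made to express bARK, a fragment of a G protein-coupled receptor kinase that binds Gq and attenuates its signalling. The other construct, bARK(D110A), carries a substitution known to disrupt that binding. From whole striata, RNA was taken from the cleared lysate (input) and from ribosomes pulled down through a hemagglutinin tag in astrocytes (IP). Input and IP of each construct made 4 groups with 4 libraries each, and no group was without a construct. The design text speaks of 4 mice and does not say whether this is in all or per construct. Within a construct the labels number the libraries 1 to 4, and an input and an IP with the same number were read as a pair. No label states that the numbers stand for separate animals, so p-values cover only the spread between these libraries, which may be technical. How the tag and the constructs were delivered, and under which promoter, is not given in the sources used here.

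Cells make cholesterol from acetyl-CoA through mevalonate, isoprenoids and squalene, and they make fatty acids from the same acetyl-CoA. The SREBP transcription factors switch on both pathways: when sterol in the endoplasmic reticulum is low, Scap carries the SREBP precursor to the Golgi for cleavage, and when sterol is plentiful the Insig proteins hold Scap back. The brain makes its own cholesterol because lipoproteins do not cross the blood-brain barrier, and astrocytes and oligodendrocytes are its main sources in the adult.

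SREBP proteins bind sterol response elements, usually beside a CCAAT box bound by NF-Y, so the start sites of the genes were searched for both on either strand. The letters searched were TCACNCCAC for the core of the element and CCAAT for the box, in RefSeq windows of GRCm38.p6 that run from 250 bases before a transcript start to 50 after it. Of the 32 genes, 25 matched the promoter table by symbol, with 33 windows. Fdps, Fdft1, Sqle, Stard4, Scd1, Scd2 and Fads1 did not match, so their start sites were not searched. The CCAAT box was in 21 of the 33 windows (63.6%), which belong to 20 of the 25 genes, and in 37.4% of all 32851 windows of that length. The element core was in 1 of the 33 windows (3.03%) and in 1.24% of all windows. That window is the start of Hmgcs1 at chr13:119690101-119690400 on the plus strand, where the core begins 137 bases upstream and 4 CCAAT boxes stand around it. It is shown with 4 others: Msmo1 (chr8:64733529-64733828, minus strand) and Fasn (chr11:120824498-120824797, minus strand), a sterol and a fatty acid enzyme with 3 boxes each, and Fads2 (chr19:10101454-10101753, minus strand) and Elovl6 (chr3:129532136-129532435, plus strand), the members with the largest and the smallest IP enrichment of the fatty acid group, which both hold neither motif. Capitals mark the motifs, with ATTGG standing for CCAAT on the other strand; in Fasn, 2 boxes overlap in CCAATTGG. Each window ends 50 bases into the transcript.
Hmgcs1: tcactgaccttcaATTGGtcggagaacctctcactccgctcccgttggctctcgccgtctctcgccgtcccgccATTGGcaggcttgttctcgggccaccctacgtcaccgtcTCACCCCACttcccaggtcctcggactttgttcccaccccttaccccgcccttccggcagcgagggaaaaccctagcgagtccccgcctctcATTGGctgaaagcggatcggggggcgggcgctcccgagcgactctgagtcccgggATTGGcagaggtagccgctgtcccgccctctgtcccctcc
Msmo1: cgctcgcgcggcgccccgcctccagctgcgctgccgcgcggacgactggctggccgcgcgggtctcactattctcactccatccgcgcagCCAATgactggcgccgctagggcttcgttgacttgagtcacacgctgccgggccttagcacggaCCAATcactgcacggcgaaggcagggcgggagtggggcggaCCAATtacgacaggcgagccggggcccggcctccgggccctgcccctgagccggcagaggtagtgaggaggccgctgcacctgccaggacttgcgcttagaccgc
Fasn: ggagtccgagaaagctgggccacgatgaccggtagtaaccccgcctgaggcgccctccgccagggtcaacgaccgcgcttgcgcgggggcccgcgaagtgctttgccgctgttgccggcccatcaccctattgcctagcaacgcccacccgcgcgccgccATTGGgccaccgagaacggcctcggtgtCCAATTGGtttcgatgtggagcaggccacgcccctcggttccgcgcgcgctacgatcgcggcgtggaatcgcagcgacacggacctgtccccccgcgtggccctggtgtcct
Fads2: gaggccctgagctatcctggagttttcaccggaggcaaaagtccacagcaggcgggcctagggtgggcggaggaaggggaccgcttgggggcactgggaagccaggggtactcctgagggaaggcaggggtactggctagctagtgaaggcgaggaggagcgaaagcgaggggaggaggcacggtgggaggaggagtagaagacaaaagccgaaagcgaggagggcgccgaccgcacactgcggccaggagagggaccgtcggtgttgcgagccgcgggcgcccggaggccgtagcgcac
Elovl6: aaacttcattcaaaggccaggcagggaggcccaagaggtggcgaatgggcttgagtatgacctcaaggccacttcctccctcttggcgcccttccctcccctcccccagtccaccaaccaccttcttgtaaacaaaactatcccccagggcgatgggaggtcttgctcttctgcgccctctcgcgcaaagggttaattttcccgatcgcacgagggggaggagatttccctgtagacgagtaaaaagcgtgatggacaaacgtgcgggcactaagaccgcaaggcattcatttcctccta
These matches are letters in a window. No match says only that these letters are not in it.

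The libraries held between 27807178 and 51432173 counted reads, and no member had fewer than 71 reads in any library. Levels are given as CPM, counts scaled to a common library total with effective library sizes. The tagged pull-down was checked against markers: all 10 astrocyte markers were higher in IP than in input with either construct, with median log2 fold changes of 2.43 and 2.61 in bARK(D110A) and bARK. All 8 microglial and all 8 endothelial markers were lower, and some endothelial markers (4 with bARK(D110A), 3 with bARK) were under 1 CPM in every IP library. All 8 spiny neuron markers were also lower, with medians of -0.997 and -1.13. The 8 pan-neuronal markers split: in the bARK(D110A) libraries 3 rose and 2 fell in IP (median 0.10), and in the bARK libraries 2 rose and 4 fell (median -0.06). Among 6 oligodendrocyte precursor markers, 4 fell in the bARK(D110A) libraries (median -0.50), while in the bARK libraries 1 rose and 1 fell (median -0.12). Of 10 oligodendrocyte markers, Mobp was lower with either construct (-0.90 ± 0.29 and -0.82 ± 0.29) and Cnp was higher with bARK (0.61 ± 0.21); the other 9 and 8 were not called, and the medians were 0.17 and 0.24. The summed level of the 10 was 4272 to 11388 CPM in the bARK(D110A) IPs and 5997 to 10071 CPM in the inputs, and 5548 to 8614 CPM in the bARK IPs and 6310 to 6990 CPM in the inputs. None of the 10 was at or near 0 in any IP group, and the part of oligodendrocyte RNA in the levels of the sterol genes was not tested.

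Across the 32 genes, IP lay above input almost throughout. In bARK(D110A), 30 were higher in IP, 1 was lower (Insig2) and 1 was not called (Elovl6), and the counts were the same in bARK. The median log2 fold change of the 32 was 1.11 in bARK(D110A) and 1.24 in bARK, against -0.01 over all 15850 genes tested in each. Over all genes, 36.5% were called higher and 37.2% lower in bARK(D110A), and 37.6% higher and 38.1% lower in bARK, so a call alone is common here. With library sizes alone the median of all genes moved to -0.16 and -0.15, and the calls over all genes split into 4459 higher and 7473 lower in bARK(D110A) and 4806 and 7333 in bARK, from 5786 and 5891 and from 5966 and 6044. Relative to that shifted median the genes stood as before, with medians of 0.95 and 1.10. In each construct 15 of the 32 lay above the 90th percentile of the fold changes of all genes. In bulk RNA of this kind, fewer cells of a type in the sample and less RNA per cell cannot be told apart.

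**Figure D1:**
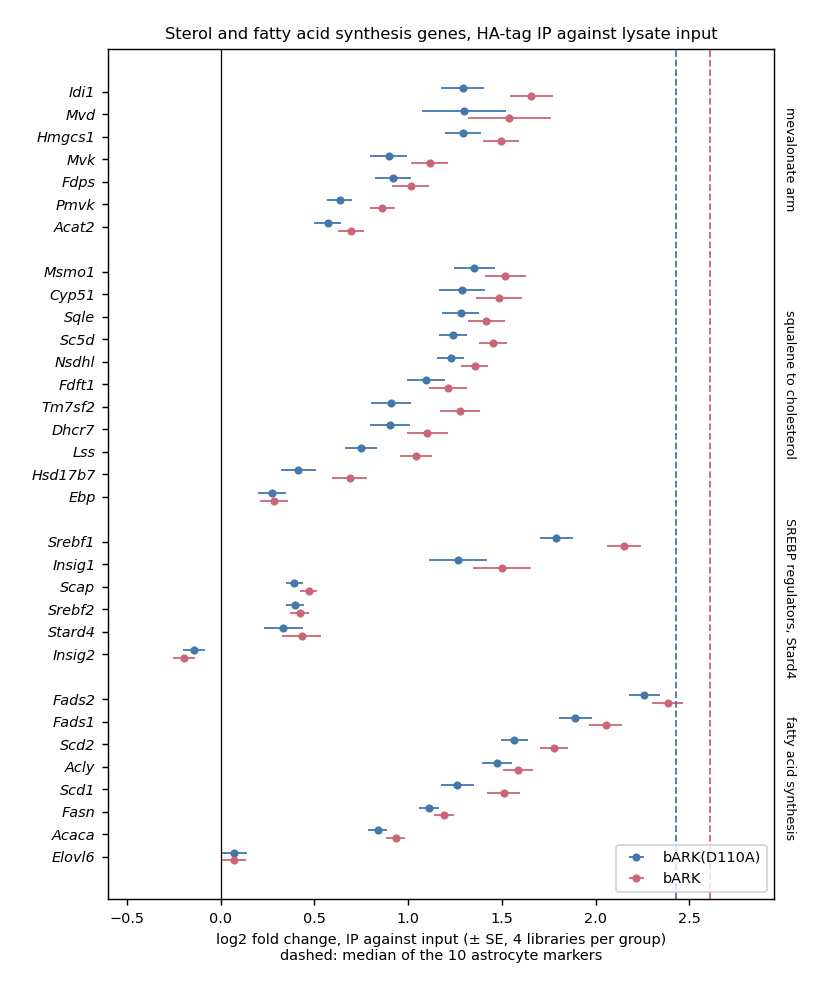
Log2 fold change of each gene in IP against input (x axis, points with SE, 4 libraries per group), by role, for bARK(D110A) in blue and bARK in red; dashed lines are the median of the 10 astrocyte markers. Points lie right of 0 except Insig2, and Elovl6 sits at 0.07 in both constructs (-0.086 and -0.074 with library sizes alone); Fads2, Fads1 and Srebf1 come closest to the astrocyte markers.

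In the mevalonate arm all 7 genes were higher in IP with either construct, with median log2 fold changes of 0.92 in bARK(D110A) and 1.11 in bARK. Hmgcs1, which joins acetoacetyl-CoA and acetyl-CoA to HMG-CoA, was the most abundant of the arm per exon length, at 50.4 CPM per kb in the bARK(D110A) inputs. Its levels in the bARK(D110A) inputs were 158, 194, 167 and 183 CPM and in the IPs 386, 414, 449 and 473 CPM, and with bARK they were 153, 185, 184 and 180.1 CPM in the inputs and 418, 571, 506 and 485 CPM in the IPs. Every IP library lay above every input, and among the IPs bARK replicate 2 was the highest. The log2 fold change was 1.29 ± 0.09 (SE, adjusted p = 2.36e-09) in bARK(D110A) and 1.49 ± 0.10 (adjusted p = 3.27e-10) in bARK. Of its exon bases, 16% overlap an antisense transcript, Gm48342, and whether the counting used strand is not known here.

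Idi1, which isomerises isopentenyl diphosphate, had the largest mean enrichment of the arm and the lowest level per length of all 32 genes in the inputs. It was at 2.64, 3.35, 2.97 and 2.77 CPM in the bARK(D110A) inputs and 6.84, 6.27, 7.78 and 7.85 CPM in the IPs, and at 2.75, 2.43, 2.75 and 2.56 CPM in the bARK inputs and 7.21, 9.61, 8.53 and 7.82 CPM in the IPs. The IPs were all above the inputs, and bARK IP 2 was again the highest. Its fold was 2.45 in bARK(D110A) (log2 1.29 ± 0.11, adjusted p = 1.7e-08) and 3.15 in bARK (log2 1.66 ± 0.11, adjusted p = 6.38e-10). Acat2, a cytosolic thiolase that makes acetoacetyl-CoA, had the smallest. It was at 27.4, 27.5, 23.4 and 25.99 CPM in the bARK(D110A) inputs and 35.6, 39.3, 39.3 and 40.6 CPM in the IPs, and at 25.96, 27.05, 23.01 and 23.98 CPM and 36.9, 44.8, 40.8 and 39.2 CPM with bARK. Groups did not overlap, with log2 fold changes of 0.57 ± 0.07 (adjusted p = 1.23e-06) and 0.70 ± 0.07 (adjusted p = 9.58e-08).

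Mvd, the decarboxylase that yields isopentenyl diphosphate, varied most between IP libraries. The IPs stood at 23.6, 21.6, 33.99 and 33.8 CPM with bARK(D110A) and at 22.2, 49.5, 41.03 and 33.7 CPM with bARK, above inputs of 10.4, 11.5, 11.6 and 12.5 CPM and 10.05, 14.98, 13.6 and 11.8 CPM. Within the bARK IPs the highest library, replicate 2, was more than double the lowest, replicate 1. The SE was the largest of the 32 genes, with log2 fold changes of 1.30 ± 0.22 and 1.54 ± 0.22 (adjusted p = 0.000115 and 2.05e-05). The kinases Mvk and Pmvk, which phosphorylate mevalonate and its phosphate, rose on the log2 scale by 0.90 ± 0.10 and 0.63 ± 0.07 in bARK(D110A) and by 1.11 ± 0.10 and 0.86 ± 0.07 in bARK. Fdps, which makes farnesyl diphosphate, rose by 0.92 ± 0.10 and 1.01 ± 0.10. The counts of some of these genes are uncertain because reads could be shared: 86.4% of the 50-base stretches of the Fdps transcript also occur in Gm43738 or another gene, 45.9% of those of Acat2 in Acat3 or another gene, and 21.3% of those of Idi1 in Gm13502 or another gene.

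All 11 genes from squalene to cholesterol were higher in IP with either construct, with median log2 fold changes of 1.10 in bARK(D110A) and 1.27 in bARK. Fdft1, squalene synthase, commits farnesyl diphosphate to sterols. Its inputs were at 45.4, 50.3, 50.97 and 51.8 CPM with bARK(D110A) and 46.3, 51.8, 56.3 and 53.6 CPM with bARK, and its IPs at 95.9, 99.2, 114 and 115 CPM and 93.7, 138, 125 and 126 CPM. The groups did not overlap, although bARK IP 1, at 93.7 CPM, was below every bARK(D110A) IP. Its changes were log2 1.10 ± 0.10 and 1.21 ± 0.10 (adjusted p = 5.33e-08 and 1.34e-08). Of its exon bases, 20.9% overlap Ctsb, a gene on the opposite strand.

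Sqle, squalene epoxidase, is a rate-limiting step after squalene. It was at 29.1, 35.6, 31.3 and 34.5 CPM in the bARK(D110A) inputs and at 71.3, 75.4, 84.3 and 86.1 CPM in the IPs, and at 29.9, 34.9, 36.4 and 32.8 CPM and 72.9, 103, 91.9 and 89.8 CPM with bARK. Input and IP were well apart, and the widest spread was again within the bARK IPs. The fold was 2.43 with bARK(D110A) (log2 1.28 ± 0.10, adjusted p = 5.16e-09) and 2.67 with bARK (log2 1.42 ± 0.10, adjusted p = 1.26e-09). Cyp51 removes the methyl group at carbon 14 of lanosterol. It was at 50.1, 58.8, 58.9 and 60.1 CPM in the bARK(D110A) inputs, 119, 124, 158 and 155 CPM in their IPs, 48.01, 60.95, 60.5 and 55.6 CPM in the bARK inputs and 127, 189, 161 and 152 CPM in their IPs. The IPs were all above the inputs, and within bARK(D110A) IPs 1 and 2 were below 3 and 4. Its log2 fold changes were 1.29 ± 0.12 and 1.48 ± 0.12 (adjusted p = 1.41e-07 and 2.42e-08).

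Msmo1, which acts on the methyl groups at carbon 4, had the largest mean enrichment of the 11 genes. Its inputs lay close together, at 72.3, 73.2, 73.8 and 74.2 CPM with bARK(D110A) and 76.8, 83.6, 79.1 and 74.04 CPM with bARK. The IPs were at 167, 165, 207 and 212 CPM and 176, 274, 234 and 215 CPM, a wider range than that of the inputs in both constructs. In the test the fold changes were log2 1.35 ± 0.11 and 1.52 ± 0.11 (adjusted p = 1.75e-08 and 3.79e-09). Ebp, the sterol isomerase that shifts a bond of the ring system, had the smallest. It was at 12.8, 13.96, 12 and 13.5 CPM in the bARK(D110A) inputs, 17.2, 15.3, 14.5 and 16.02 CPM in the IPs, 13.1, 12.2, 14.1 and 12.6 CPM in the bARK inputs and 16.5, 14.6, 17.2 and 15.1 CPM in the IPs. The groups came within 1 CPM of each other without overlap. The log2 fold changes of 0.27 ± 0.07 (adjusted p = 0.00291) and 0.28 ± 0.07 (adjusted p = 0.00213) were 0.12 and 0.14 with library sizes alone, with adjusted p = 0.183 and 0.106.

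Dhcr7, the reductase of the last step in one branch, was at 13.9, 17.2, 15.2 and 15.1 CPM in the bARK(D110A) inputs and 26.4, 26.3, 28.4 and 33.7 CPM in the IPs, and at 13.2, 17.3, 15.98 and 14.6 CPM and 26.7, 36.3, 33.2 and 34.96 CPM with bARK. Input and IP did not overlap in either construct. Its log2 fold changes were 0.90 ± 0.11 and 1.10 ± 0.11 (adjusted p = 8.93e-07 and 6.87e-08). The remaining genes of the sequence were Sc5d, which desaturates the ring (1.24 ± 0.08 and 1.45 ± 0.08), Nsdhl, which works with Msmo1 (1.23 ± 0.07 and 1.35 ± 0.07), Lss, lanosterol synthase (0.75 ± 0.09 and 1.04 ± 0.09), Tm7sf2, a sterol reductase (0.91 ± 0.11 and 1.27 ± 0.11), and Hsd17b7, a ketosteroid reductase (0.41 ± 0.09 and 0.69 ± 0.09). All were higher in IP, and their adjusted p ran from 1.66e-11 for Sc5d in bARK to 0.000637 for Hsd17b7 in bARK(D110A). Taking both arms, the 18 sterol enzymes ranged from 0.27 to 1.35 in bARK(D110A) and from 0.28 to 1.66 in bARK.

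**Figure D2:**
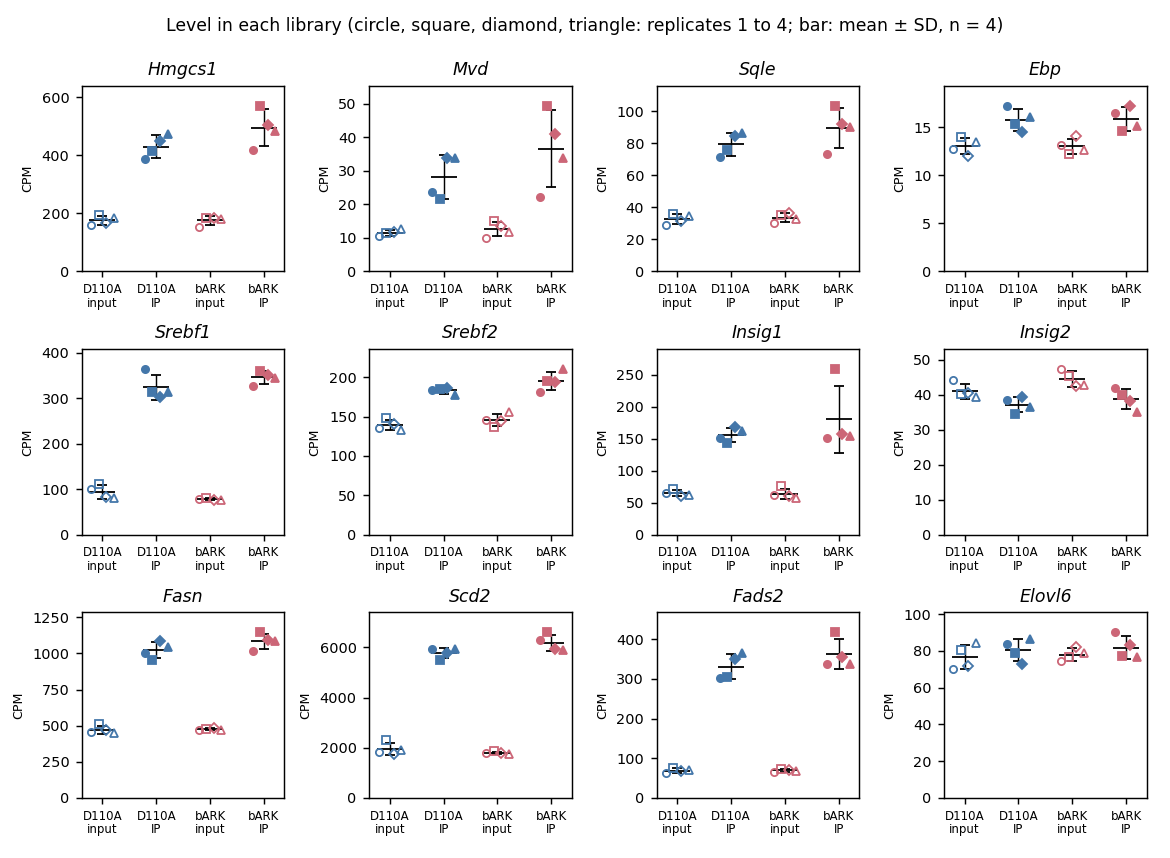
CPM of 12 genes (y axes, from 0) in the 4 groups (x axis; blue bARK(D110A), red bARK; open input, filled IP), with the replicate shown by the marker shape and the mean ± SD of 4 libraries as bars. Hmgcs1, Mvd, Sqle, Srebf1, Insig1, Fasn, Scd2 and Fads2 show IP groups well above inputs, Ebp and Srebf2 a small step, Insig2 a step down and Elovl6 overlapping groups; bARK IP 2 stands out for Insig1 at 259 CPM.

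Of the 6 regulators and carriers, 5 were higher in IP and 1 lower in each construct, with medians of 0.39 and 0.45, and Srebf1 and Insig1 were well above the other 4. Srebf1 encodes SREBP-1, which mainly drives fatty acid genes. It was at 101, 112, 82.5 and 79.6 CPM in the bARK(D110A) inputs and 364, 314, 303 and 315 CPM in the IPs, and at 78.7, 80.4, 76.2 and 76.2 CPM in the bARK inputs and 328, 361, 350.5 and 345 CPM in the IPs. No input came near an IP, and bARK(D110A) inputs 1 and 2 were above the other inputs. The fold was 3.46 in bARK(D110A) (log2 1.79 ± 0.09, adjusted p = 1.5e-11) and 4.44 in bARK (log2 2.15 ± 0.09, adjusted p = 1.48e-12). Srebf2 encodes SREBP-2, which mainly drives sterol genes. It was at 136, 148, 140.2 and 133 CPM and 146, 137, 145 and 156 CPM in the inputs of bARK(D110A) and bARK and at 184, 185, 187 and 177 CPM and 182, 196, 194 and 210.4 CPM in the IPs. The groups did not overlap, but the step was small, at 0.40 ± 0.05 and 0.42 ± 0.05 (adjusted p = 1.62e-06 and 6.93e-07).

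Per kb of exon, Srebf1 was below Srebf2 in input and above it in IP. The mean ratio of Srebf1 to Srebf2 was 0.793 ± 0.108 (SD, n = 4) in the bARK(D110A) inputs and 0.632 ± 0.047 in the bARK inputs. In the IPs it was 2.09 ± 0.18 and 2.09 ± 0.11. No input reached 1 and no IP was below 1.9, so the order of the pair differed between input and IP in every library. Library scaling cancels in such a ratio.

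Scap, the escort of the SREBP precursors, was at 135, 136, 127 and 122 CPM in the bARK(D110A) inputs, 183, 165, 167 and 167 CPM in the IPs, 131, 123, 129 and 122 CPM in the bARK inputs and 173, 178, 173 and 175 CPM in the IPs. All IPs were above all inputs by a small margin, with log2 fold changes of 0.39 ± 0.05 and 0.47 ± 0.05 (adjusted p = 5.12e-07 and 4.81e-08). Of its exon bases, 18.6% overlap 5830462I19Rik on the opposite strand. The Insig genes, whose products retain Scap, went opposite ways. Insig1, itself an SREBP target, was at 64.6, 71.1, 61.04 and 62.5 CPM and 61.3, 75.5, 60.8 and 57.2 CPM in the inputs of bARK(D110A) and bARK and at 151, 143, 168 and 162 CPM and 150.4, 259, 157 and 155 CPM in the IPs. No input overlapped an IP, and bARK IP 2 was far above the other bARK IPs. The log2 fold changes were 1.27 ± 0.15 (adjusted p = 2.9e-06) and 1.502 ± 0.15 (adjusted p = 4.36e-07), and the value in bARK was 1.28 without bARK IP 2.

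Insig2 was the only member called lower in IP. It was at 44.1, 40.2, 40.6 and 39.3 CPM in the bARK(D110A) inputs and 38.4, 34.4, 39.3 and 36.6 CPM in the IPs, and at 47.4, 45.3, 42.5 and 42.8 CPM in the bARK inputs and 41.9, 40.1, 38.3 and 35.1 CPM in the IPs. With bARK every IP was below every input, and with bARK(D110A) IP 3 reached the lowest input. The log2 fold changes were -0.14 ± 0.06 (adjusted p = 0.041) and -0.20 ± 0.06 (adjusted p = 0.00744); the call in bARK(D110A) was lost when any of 5 libraries was left out (adjusted p = 0.063 to 0.143) and without the count filter (adjusted p = 0.0706). Per kb, Insig1 stood 1.73 ± 0.15 times Insig2 in the bARK(D110A) inputs and 1.57 ± 0.18 times in the bARK inputs, and 4.59 ± 0.23 and 5.08 ± 1.38 times in the IPs. Stard4, a carrier that moves cholesterol between membranes, was at 8.32, 11.03, 10.2 and 9.88 CPM and 9.68, 10.5, 11.3 and 10.4 CPM in the inputs of bARK(D110A) and bARK and at 11.2, 12.3, 12.9 and 13.4 CPM and 11.6, 16.9, 13.8 and 14.1 CPM in the IPs. The margins were small, with log2 fold changes of 0.33 ± 0.11 (adjusted p = 0.00862) and 0.43 ± 0.10 (adjusted p = 0.0013); the former was 0.18 with library sizes alone (adjusted p = 0.132).

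The fatty acid genes held the largest enrichments, with medians of 1.37 in bARK(D110A) and 1.55 in bARK and 7 of 8 called higher in each. Acly makes cytosolic acetyl-CoA from citrate, and it rose by 1.48 ± 0.08 and 1.59 ± 0.08. Acaca makes malonyl-CoA. It was at 45.9, 55.3, 48.99 and 52.4 CPM in the bARK(D110A) inputs, 87.5, 88.5, 91.8 and 94.2 CPM in the IPs, 47.7, 48.6, 50.7 and 52.7 CPM in the bARK inputs and 95.4, 94.7, 94.2 and 97.1 CPM in the IPs. The bARK IPs lay close together, and all IPs were above all inputs. The log2 fold changes were 0.84 ± 0.05 and 0.93 ± 0.05 (adjusted p = 1.75e-10 and 3.58e-11). Of the 50-base stretches of its transcript, 52.6% also occur in another gene, mostly Gm5182. Fasn, fatty acid synthase, builds palmitate. It was at 459, 513, 468 and 450.4 CPM in the bARK(D110A) inputs and 1003, 954, 1088 and 1047 CPM in the IPs, and at 468, 479, 481 and 472 CPM and 1015, 1145, 1089.5 and 1084 CPM with bARK. Input and IP were far apart, with log2 fold changes of 1.11 ± 0.05 and 1.19 ± 0.05 (adjusted p = 6.3e-12 and 2.25e-12).

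Scd1 and Scd2, the desaturases that make oleate and palmitoleate, lie close together on chromosome 19 (GRCm38.p6, 44394450 to 44407709 and 44293676 to 44306864). Scd2 was the most abundant of the 32 genes per exon length, at 358 CPM per kb in the bARK(D110A) inputs and 1060 CPM per kb in the IPs (means of 4). It was at 1832, 2305, 1756 and 1919.7 CPM in the bARK(D110A) inputs and 5938, 5489.9, 5769.7 and 5924 CPM in the IPs, and at 1794, 1870.2, 1785 and 1762 CPM in the bARK inputs and 6286, 6601, 5945 and 5905 CPM in the IPs. Input 2 of bARK(D110A) stood above the other inputs, and no input came near an IP. Scd2 thus rose by log2 1.57 ± 0.07 and 1.78 ± 0.07 (adjusted p = 4.57e-12 and 7.77e-13). Scd1 was at 209, 274, 191 and 225 CPM and 207, 218, 201 and 198 CPM in the inputs of bARK(D110A) and bARK and at 511, 521, 544 and 578 CPM and 602, 646, 543 and 555 CPM in the IPs. Its groups did not overlap, with log2 fold changes of 1.26 ± 0.09 and 1.51 ± 0.09 (adjusted p = 9.4e-10 and 8.07e-11). The ratio of Scd2 to Scd1 per kb was 7.73 ± 0.31 and 7.76 ± 0.13 in the inputs of bARK(D110A) and bARK and 9.52 ± 0.53 and 9.35 ± 0.27 in the IPs.

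Fads1 and Fads2 desaturate polyunsaturated fatty acids and also lie close together on chromosome 19 (10182877 to 10196874 and 10062765 to 10101503). Fads2 had the largest enrichment of the 32 genes. It was at 62.8, 74.8, 66.95 and 71.6 CPM in the bARK(D110A) inputs and 303, 304, 351 and 365 CPM in the IPs, and at 65.2, 73.8, 71.2 and 66.9 CPM in the bARK inputs and 337, 417, 355 and 337 CPM in the IPs. Every IP was far above every input, and bARK IP 2 was the highest. The fold was 4.79 in bARK(D110A) (log2 2.26 ± 0.08, adjusted p = 3.12e-13) and 5.22 in bARK (log2 2.38 ± 0.08, adjusted p = 1.25e-13). Fads1 was at 186, 209, 208 and 212 CPM and 193, 213, 205 and 192 CPM in the inputs of bARK(D110A) and bARK and at 670.1, 670.1, 849 and 834 CPM and 787, 964, 800.4 and 779 CPM in the IPs. Among the bARK(D110A) IPs, 1 and 2 were below 3 and 4, and all were far above input. Fads1 rose by log2 1.89 ± 0.09 and 2.05 ± 0.09 (adjusted p = 5.55e-12 and 1.68e-12).

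Elovl6, which elongates palmitate to stearate, was the exception in the group. It was at 70.3, 80.4, 72.1 and 84.2 CPM in the bARK(D110A) inputs and 83.9, 78.8, 72.8 and 86.8 CPM in the IPs, and at 74.4, 76.6, 82.3 and 78.9 CPM in the bARK inputs and 90.1, 77.4, 83.1 and 76.9 CPM in the IPs. Input and IP overlapped in both constructs. The log2 fold changes were 0.07 ± 0.07 (adjusted p = 0.363) and 0.07 ± 0.07 (adjusted p = 0.371), and they turned to -0.086 and -0.074 with library sizes alone.

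Other genes of the pathways were counted beside the 32. Of 15 further sterol and isoprenoid genes, 6 were higher and 5 lower in IP with bARK(D110A), and 6 and 6 with bARK, with medians of 0.01 and 0.10. The highest were Abca1, which exports cholesterol to lipoproteins (1.62 ± 0.06 and 1.84 ± 0.06 in bARK(D110A) and bARK), and Soat1, which esterifies it (1.41 ± 0.05 and 1.44 ± 0.05). Erlin1, a cholesterol-binding protein of the endoplasmic reticulum (-0.89 ± 0.09 and -0.93 ± 0.09), and Mylip, a ubiquitin ligase for lipoprotein receptors (-0.89 ± 0.10 and -0.83 ± 0.10), were the lowest. Of 23 further fatty acid genes, 18 passed the test upward and 1 downward with either construct, with medians of 1.00 and 1.02. Gpam, which starts glycerolipid synthesis, was at 2.06 ± 0.06 and 2.22 ± 0.06, and Thrsp, an SREBP-responsive lipogenic gene, at 1.96 ± 0.11 and 2.29 ± 0.11. The lowest were Mlxipl, which encodes the sugar-responsive factor ChREBP (-1.04 ± 0.22 in bARK(D110A), and -0.37 ± 0.22 with adjusted p = 0.143 in bARK), and its partner Mlx (-0.12 ± 0.07 with adjusted p = 0.118, and -0.28 ± 0.07).

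The next question was whether the enrichment differed with the construct, asked by an interaction term over the 16 libraries. No gene of the 15850 tested passed the threshold in edgeR, so the background was 0% higher and 0% lower, and none of the 32 was called. In this fit, which does not pair input and IP, 951 genes and 7 of the 32 had an unadjusted p under 0.05. A fit that pairs input and IP of the same number had 1851 genes and 10 of the 32 there, and called 0 genes. DESeq2 also called 0 genes. The difference, bARK minus bARK(D110A), was above 0 for 30 of the 32, with a median of 0.16 against 0.02 over all genes. That median was 0.079 without bARK IP 2 and 0.094 without bARK(D110A) IP 1, and the number of members with an unadjusted p under 0.05 ran from 1 to 9 as each library was left out, with 1 in either of those fits. The 7 genes were Srebf1 (0.36 ± 0.12), Tm7sf2 (0.36 ± 0.15), Idi1 (0.37 ± 0.16), Lss (0.29 ± 0.12), Hsd17b7 (0.27 ± 0.13), Pmvk (0.23 ± 0.09) and Scd2 (0.21 ± 0.10), and each had an adjusted p of 0.825. The value was 0.15 for Hsd17b7 without bARK IP 2 and 0.11 for Scd2 without bARK(D110A) input 2. For Srebf1, IP minus input of the same number was 1.85, 1.49, 1.88 and 1.98 log2 units with bARK(D110A) and 2.06, 2.166, 2.20 and 2.18 with bARK. The bARK values were all higher, and replicate 2 of bARK(D110A) was the lowest. For Tm7sf2 they were 0.88, 0.71, 0.77 and 1.30 and 1.34, 1.44, 1.05 and 1.26, which overlap.

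Astrocyte markers stood on the same side: the difference was above 0 for all 10, with a median of 0.24. It was above 0 for all 6 oligodendrocyte precursor markers (median 0.35) and all 10 oligodendrocyte markers (0.09). The same held for 7 of 8 microglial (0.23) and 7 of 8 endothelial markers (0.18). It was below 0 for all 8 pan-neuronal (-0.15) and all 8 spiny neuron markers (-0.16). None of these markers was called in edgeR. At an unadjusted p under 0.05 were 5 astrocyte, 3 precursor and 1 pan-neuronal marker, and 0 in each of the other lists. Their part in the values of the 32 genes was not tested in this contrast. The mean log2 CPM of the astrocyte markers was 9.98 to 10.13 in the bARK(D110A) IPs and 10.21 to 10.38 in the bARK IPs, without overlap. Their summed level was 28073 to 34555 CPM and 33180 to 39758 CPM.

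Within the IP libraries, bARK against bARK(D110A) gave no call among 15006 genes in edgeR (0% higher, 0% lower), with 1287 genes at an unadjusted p under 0.05; DESeq2 called 37 genes higher and 11 lower, none of them among the 32. Of the 32, 31 were above 0, with a median log2 fold change of 0.15 against -0.0001 over all genes, and 5 had an unadjusted p under 0.05. Without bARK IP 2 the median was 0.075 and 1 had an unadjusted p under 0.05, and without bARK IP 1 the number was 15. The median was 0.18 in the 18 sterol enzymes, 0.08 in the regulators and 0.09 in the fatty acid genes. Of those 5, Tm7sf2 had the lowest adjusted p. It was at 10.6, 10.8, 12.3 and 13.4 CPM in the bARK(D110A) IPs and 13.7, 16.9, 13.6 and 14.1 CPM in the bARK IPs. The lowest bARK library lay just above the highest bARK(D110A) library. How many of all genes had groups apart in this way was not counted. The log2 fold change of Tm7sf2 was 0.30 ± 0.09 with adjusted p = 0.489. The other 4 were Hsd17b7 (0.22 ± 0.10, and 0.10 without bARK IP 2), Lss (0.20 ± 0.08), Pmvk (0.19 ± 0.07) and Sc5d (0.14 ± 0.06, and 0.09 without bARK IP 2), with adjusted p between 0.536 and 0.579. When the astrocyte marker level of each library was added as a covariate, an alternative chosen after seeing the data, 9 of the 32 were above 0 and 23 below, with a median of -0.04; Hsd17b7, Lss and Sc5d then stood at -0.14, -0.025 and -0.036. The marker level itself does not overlap between the groups, so this fit has little room to tell the construct from it. With the oligodendrocyte marker level as covariate all 32 were above 0, with a median of 0.13. In the same contrast all 10 astrocyte markers were above 0 (median 0.18, 7 with an unadjusted p under 0.05). All 10 oligodendrocyte markers were below 0 (median -0.21). All 8 pan-neuronal and all 8 spiny neuron markers were below 0 (medians -0.12 and -0.11). Above 0 were 5 of the 6 oligodendrocyte precursor markers (median 0.26), 6 of 8 microglial markers (0.08) and 6 of 8 endothelial markers (0.14). None of these markers was called in edgeR. For the lists not used as covariates, their part in the values of the 32 was not tested.

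**Figure D3:**
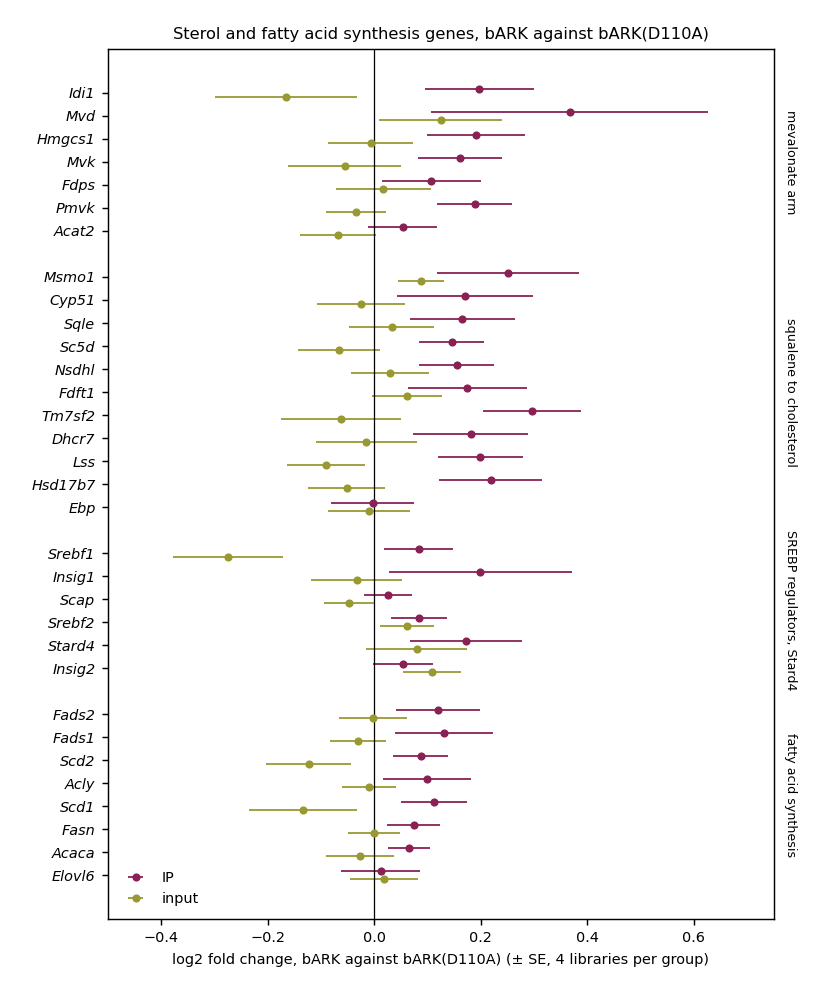
Log2 fold change of each gene with bARK against bARK(D110A) (x axis, points with SE, 4 libraries per group), in IP (purple) and input (olive), by role. The IP points lie right of 0 but for Ebp, at -0.003, and the input points scatter around 0 with Srebf1 lowest at -0.27; no gene was called in either.

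In input the genes stood on both sides of 0. Among 15361 genes edgeR called none (0% higher, 0% lower), 904 had an unadjusted p under 0.05, and DESeq2 called 2 higher and 0 lower. Of the 32, 10 were above 0 and 22 below, with a median of -0.02 against -0.01 over all genes. The split turned to 19 above and 13 below without bARK(D110A) input 2 (median 0.028) and to 18 and 14 without bARK input 1 (0.017). With the oligodendrocyte marker level as covariate it was 25 and 7 (0.044). With the astrocyte marker level, a covariate chosen after seeing the data, it was 19 and 13 (0.012). Only Srebf1 had an unadjusted p under 0.05, at -0.27 ± 0.10 (adjusted p = 0.774). Its bARK inputs lay between 76.2 and 80.4 CPM, and bARK(D110A) inputs 1 and 2, at 101 and 112 CPM, were the high ones. The value was -0.17 without bARK(D110A) input 2 and -0.09 with the oligodendrocyte marker level as covariate. Those inputs were also the highest for oligodendrocyte markers, at 8640 and 10071 CPM summed, against 5997 to 7645 CPM in the other inputs of that group. They were the highest for microglial markers too, at 918 and 714 CPM summed, against 529 and 667 CPM in inputs 3 and 4. In none of the other marker lists were both of them the highest. The cause of the Srebf1 value was not tested. Between constructs all 10 oligodendrocyte markers were below 0 in input (median -0.32, 3 with an unadjusted p under 0.05). So were all 8 microglial (-0.15), all 6 precursor (-0.12), 8 of 10 astrocyte (-0.06) and 5 of 8 endothelial markers (-0.03). Above 0 were 6 of 8 pan-neuronal (0.04) and 7 of 8 spiny neuron markers (0.08). None of these markers was called in edgeR.

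The sterol enzymes also varied together between IP libraries of a group, a pattern picked out after the values were seen. Within the bARK IPs, replicate 2 was the highest for 16 of the 18 sterol enzymes and replicate 1 the lowest for 16 of 18. The median ratio to the mean of the other 3 libraries was 1.21 for replicate 2 and 0.814 for replicate 1. Over all 32 genes the counts were 26 and 23. In the bARK(D110A) IPs, replicates 1 and 2 were both below replicates 3 and 4 for 15 of the 18 sterol enzymes and above them for none, and for 23 of the 32. The 6 genes whose highest bARK IP was another library were Ebp, for which replicate 2 was the lowest, Nsdhl (31.5 CPM in replicate 3 against 29.97 CPM in replicate 2), Srebf2 and Acaca (replicate 4), and Insig2 and Elovl6 (replicate 1). These library orders were not counted over all genes, so they are not shown to be particular to the 32. The 23 further fatty acid genes also summed highest in bARK IP 2 (2720 CPM, against 2383 to 2504 CPM). So did the 15 further sterol and isoprenoid genes (1749 CPM, against 1675 to 1740 CPM), by a small margin. By mean log2 CPM those 15 genes were highest in bARK IP 3, at 5.809, against 5.788 in bARK IP 2.

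Marker levels differed between the same libraries. In the bARK IPs, astrocyte markers were highest in replicate 2 (39758 CPM summed, against 33180 to 34913 CPM) and oligodendrocyte markers were lowest there (5548 CPM) and highest in replicate 1 (8614 CPM). In the bARK(D110A) IPs, astrocyte markers summed to 29945, 28073, 34555 and 31116.5 CPM in replicates 1 to 4, with 1 and 2 below 3 and 4. Their mean log2 CPM was 10.106, 9.985, 10.097 and 10.126, with replicate 1 above replicate 3. Oligodendrocyte markers summed to 11388, 8424, 4272 and 6966 CPM in replicates 1 to 4. Replicate 4 was the highest of those IPs for 13 of the 18 sterol enzymes and replicate 3, with less oligodendrocyte marker RNA, for 4. The part of the markers in the spread was not tested.

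**Figure D4:**
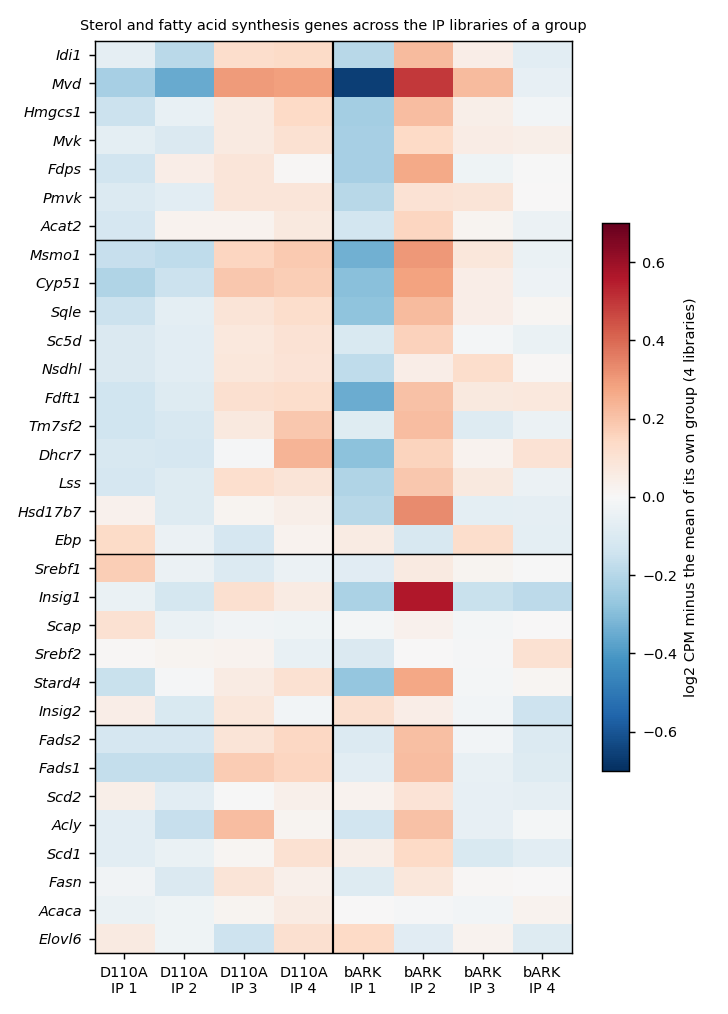
Log2 CPM of each gene (rows, by role) in each IP library (columns) minus the mean of its own group of 4 libraries, on the colour scale at the right. Most sterol enzyme rows are blue in bARK IP 1 and red in bARK IP 2, and blue in bARK(D110A) IPs 1 and 2; Insig1 in bARK IP 2 is 259 CPM against 150.4 to 157 CPM in the other 3.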

How the data were processed

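Whole striata gave input and HA-tag IP RNA, and paired-end libraries were made with an mRNA-enrichment kit, per the labels' protocols. The submitters' processing notes name bcl2fastq 2.17, STAR, HTSeq, limma and the build mm10. The label of the deposited counts names RefSeq. The other tool versions, the annotation release and whether counting used strand are not given in the sources used here. The authors deposited whole-number read counts per gene and library.

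From these counts, quasi-likelihood F tests were computed in edgeR 4.0.16 (R 4.3.3), using TMM factors, robust dispersion, the filterByExpr filter at a minimum count of 10 and Benjamini-Hochberg adjustment over all genes, at a threshold of 0.05. Adjusted p-values are from these tests unless another tool is named. IP against input and the interaction came from a fit of all 16 libraries, bARK against bARK(D110A) from fits of the 8 libraries of each fraction. The ± after a log2 fold change is its SE. Alternatives were DESeq2 1.42.0, library sizes alone, no filter, each library left out, a replicate block and marker levels as covariates. The scripts were tested on simulated data.

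The members, gene lists and tests were chosen with earlier results of these data known. Genes with values in every library were the central enzymes and regulators of each arm and the highest and lowest of each role group by mean IP enrichment. Replicates of a group differed well beyond counting noise (chi-square per degree of freedom 5.88 to 71.6 over 24 pairs), so none was taken as the same library sequenced again. This spread cannot tell separate animals from separate preparations of the same tissue. Deviations from the group mean correlated between input and IP of the same number (0.156 to 0.544, and 8 of 8 matched their own number best), so the number pairs input and IP; between constructs they did not (-0.228 to 0.0853, 0 of 8). Gene positions and promoter windows are RefSeq's for GRCm38.p6, the assembly of mm10; 2 listed genes (Hacd2 and Hacd3) matched by older symbols. Shared sequence and exon overlap were computed from GENCODE gene models, which need not be the models used in the counting.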

Additional observations from a re-analysis of the deposited data

Results flagged for a closer look

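Of 128 groups of 4 libraries (32 genes in 4 groups), 8 held a library far from its group by Dixon's criterion for 4 values, and chance alone gives about 1 in 20 groups. With bARK(D110A), input 1 was low for Cyp51 (50.1 CPM, the nearest other library at 58.8 CPM) and Fads1 (186 CPM, nearest 208 CPM), IP 2 was low for Hsd17b7 (29.6 CPM, nearest 31.96 CPM), and IP 1 was high for Scap (183 CPM, nearest 167 CPM). With bARK, input 1 was low for Hmgcs1 (153 CPM, nearest 180.1 CPM). The other 3 were all high values of bARK IP 2: Insig1 at 259 CPM (nearest 157 CPM), Fads1 at 964 CPM (nearest 800.4 CPM) and Tm7sf2 at 16.9 CPM (nearest 14.1 CPM). The highest astrocyte marker level of the bARK IPs, a mean of 10.38 on the log2 CPM scale, was in the same library, and its part in these values was not tested.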

How the results depend on the processing

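The counts of 30 higher and 1 lower member in IP held in both constructs under DESeq2 and with the paired fit (replicate block), in which 30 and 1 were called and no call among the 32 changed; the paired interaction called 0 members. The members higher with library sizes alone were 28 in bARK(D110A) and 29 in bARK, where Ebp (0.12 and 0.14) and, in bARK(D110A), Stard4 (0.18) were not called. Leaving out each library in turn gave 0 to 1 lower members in bARK(D110A): Insig2 lost its call without bARK(D110A) input 1, input 3, IP 2 or IP 4 or without bARK input 3. Without a count filter that number was 0. Elovl6, never called, changed sign with library sizes alone, to -0.086 in bARK(D110A) and -0.074 in bARK. With the astrocyte marker level as covariate in IP, chosen after seeing the data, Hsd17b7 (-0.14), Lss (-0.025) and Sc5d (-0.036) changed sign against bARK(D110A); the cause was not tested. No alternative run called a member in the interaction or in bARK against bARK(D110A). With 4 library pairs (input and IP of the same number) against 4, exact two-sided permutation tests of IP minus input gave p = 0.0286, the smallest they can give, for Srebf1, Lss, Hsd17b7 and Scd2, and 0.0571 to 0.0857 for Idi1, Pmvk and Tm7sf2, but these 7 had been picked by their unadjusted p in the same contrast. The lowest count of a member in a library was 71 reads, and the number of libraries limits the precision.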
